A study of Mus musculus with 6 samples.

Results

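Cholesterol synthesis, sterol sensing and cellular cholesterol handling were followed in mouse liver through a list of 28 genes. Every probe set (a group of probes against a stretch of 1 transcript) annotated to exactly 1 of these symbols was taken. This gave 59 probe sets of 26 genes, out of 45037 probe sets tested and 18193 genes with such a probe set. No probe set was annotated to Acat2 or Soat2 alone, and these genes are not analysed here.

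The livers came from 6 male BALB/cCrSlc mice, an inbred laboratory strain. Mice of both groups ate low-protein diets made on the AIN-93M formula, a purified maintenance diet for rodents, for 10 weeks and were 17 weeks old at sampling, in the morning after 3 h of starvation. The control diet, 10C, contained 10% casein, and the diet 6C+4CP contained 6% casein with 4% fish-derived collagen peptide, so that lower casein and added collagen peptide cannot be told apart. From 12 mice on each diet, 3 of medium food efficiency (weight gain per food eaten) were chosen, and each gave 1 Affymetrix 3' expression array from a piece of liver. The question was how the collagen peptide diet alters hepatic gene expression.

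The liver makes cholesterol from acetyl-CoA through mevalonate, farnesyl diphosphate, squalene and lanosterol. When sterols in the endoplasmic reticulum are low, the escort protein Scap carries the transcription factor precursor SREBP-2, encoded by Srebf2, to the Golgi, where it is cleaved, and the released factor activates most genes of the route. When sterols are high, Insig proteins hold Scap back. Mylip, an E3 ligase induced by sterols, reduces receptor-mediated uptake of cholesterol, and Npc1 and Npc2 release cholesterol from lysosomes.

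Promoter sequence is shown for 5 genes on which the results below turn: Hmgcs1, with the most probe sets apart between the diets, Idi1, Nsdhl and Cyp51, which differed widely between mice of one diet, and Insig2, whose order of mice was another. Each is the 250 bases before the annotated start in RefSeq (GRCm38.p6), written in the direction of transcription. Capitals mark matches, on either strand, to TCACNCCAC, a form of the sterol regulatory element bound by SREBP, and to CCAAT, the box bound by the factor NF-Y, which often acts beside SREBP. Insig2 has 3 annotated starts in that table, and 1 is shown.
Hmgcs1, chr13:119690101-119690350, plus strand: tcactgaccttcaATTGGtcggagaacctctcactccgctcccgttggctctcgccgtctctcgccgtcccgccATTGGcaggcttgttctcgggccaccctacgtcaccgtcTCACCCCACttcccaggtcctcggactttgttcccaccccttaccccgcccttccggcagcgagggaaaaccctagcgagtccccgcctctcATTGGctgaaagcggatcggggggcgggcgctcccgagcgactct
Idi1, chr13:8885356-8885605, plus strand: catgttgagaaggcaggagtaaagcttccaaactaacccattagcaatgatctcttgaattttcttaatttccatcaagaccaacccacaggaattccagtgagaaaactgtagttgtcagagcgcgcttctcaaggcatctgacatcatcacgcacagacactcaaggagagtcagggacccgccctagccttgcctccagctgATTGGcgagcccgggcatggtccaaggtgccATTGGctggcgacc
Nsdhl, chrX:72918271-72918520, plus strand: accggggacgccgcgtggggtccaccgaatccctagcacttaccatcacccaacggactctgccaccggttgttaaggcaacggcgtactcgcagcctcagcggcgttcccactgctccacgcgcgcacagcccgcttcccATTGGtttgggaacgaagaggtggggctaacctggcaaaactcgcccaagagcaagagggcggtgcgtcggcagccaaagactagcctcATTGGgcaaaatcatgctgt
Cyp51, chr5:4104698-4104947, minus strand: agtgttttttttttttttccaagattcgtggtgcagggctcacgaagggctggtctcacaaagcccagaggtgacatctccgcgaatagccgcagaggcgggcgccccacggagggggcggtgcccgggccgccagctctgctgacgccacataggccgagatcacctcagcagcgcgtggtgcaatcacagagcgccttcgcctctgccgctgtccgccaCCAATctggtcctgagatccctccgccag
Insig2, chr1:121332590-121332839, minus strand: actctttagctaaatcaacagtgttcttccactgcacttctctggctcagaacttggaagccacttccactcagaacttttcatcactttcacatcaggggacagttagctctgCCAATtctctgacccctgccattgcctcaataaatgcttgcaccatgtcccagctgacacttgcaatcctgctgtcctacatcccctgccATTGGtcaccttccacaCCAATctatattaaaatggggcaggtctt

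RefSeq windows were held for 22 of the 28 genes. A CCAAT match lay in 20 of these 22, Acat2 and Scap being those without one, against 37.5% of the 27025 genes in the table. Of the windows printed, those of Hmgcs1 and Insig2 held 3 such matches each, those of Idi1 and Nsdhl 2 each and that of Cyp51 1. TCACNCCAC was found in 1 of the 22, Hmgcs1, starting 137 bases before the start, against 1.22% of all genes. Both shorter forms, which overlap it, were also searched: TCACCCC lay in Hmgcs1, Srebf2 and a window of Insig2 other than the one printed (4.91% of all genes) and CACNCCAC in Acat2, Hmgcs1 and Insig1 (6.05%). These matches describe the letters of the windows only.

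Values are the deposited ones, read as log2, a reading on which every fold rests. Array medians lay between 6.306 and 6.308. Of the 45037 probe sets 37246 hold practically 1 value for all 6 mice, so a probe set is called varying here when its values range over more than 0.01. By this mark 33 of the 59 probe sets varied (55.9%, against 17.3% of the whole table), from 20 genes. The mark keeps only probe sets whose values differ among mice, so counts over the 33 describe those and not all 59. Just inside the mark was Sc5d 1424709_at with a range of 0.0949, and just outside it Msmo1 1459627_at with 0.00305. Mvk, Mvd, Ggps1, Srebf2, Npc1 and Mylip had no varying probe set, and their deposited values do not show whether their levels differed. Hepatocyte markers had list means of 13.17 to 13.38 on the 6 arrays. Of 7 measured 5 varied, and 4 of these were without overlap, with differences of -0.27 for Cps1, -0.23 for Hpd, -0.070 for Apoh and 0.032 for Ttr, whose part in the results was not tested. Of 3 adipocyte markers 1 varied, Cidec, higher without overlap by 0.20, and the pancreatic acinar, skeletal muscle and cholangiocyte markers measured (14 genes) had none that varied. Of 9 Kupffer cell and macrophage markers 6 varied, 1 higher and 5 lower in 6C+4CP, all with overlap. Of 5 stellate cell markers 2 varied, 1 higher and 1 lower, and of 6 sinusoidal endothelium markers 1 varied, lower, all with overlap. In whole liver, fewer cells of a type and less RNA per cell cannot be told apart. The array of 10C replicate 3 was nearest to that of 6C+4CP replicate 2 by correlation over the varying probe sets (r = 0.985), and its r to the other 10C arrays was 0.971 and 0.973; probe sets are not independent replicates.

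No varying probe set of the sterol genes passed the test between the diets, and their means went both ways. Of the 33 varying probe sets 15 had a higher and 18 a lower mean in 6C+4CP, with a median difference of -0.023, beside -0.0040 over all 7791 varying probe sets. In 5 the mice fed 6C+4CP all lay above those fed 10C, and in 1 all lay below. These are 15.2% and 3.03% of the 33, against 10.8% and 9.11% of all varying probe sets, and together 18.2% against 19.9%. Limma with Benjamini-Hochberg adjustment called 0 of the 33, with 4 at an unadjusted p under 0.05 (12.1%, against 14.6% of all varying probe sets). Over all varying probe sets limma called 0 of 7791 (0%), with 1140 at an unadjusted p under 0.05. A limma p that misses the threshold does not show that the diets acted alike, as 3 mice per diet limit the precision. An exact permutation test, a different test from limma, cannot go below 0.1 at this size.

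When all 45037 probe sets were fitted together, limma called 109 (0.242%), 67 higher (0.149%) and 42 lower (0.0933%) in 6C+4CP. Of these 103 were not varying, and their differences were at most 1.3e-08. The 1 called probe set among the sterol genes was of this kind: Ggps1 1419805_s_at, for geranylgeranyl diphosphate synthase, with a difference of 1e-09 (limma adjusted p = 0.00108), where a varying probe set ranges over more than 0.01. The lowest limma adjusted p of a varying sterol probe set in that fit was 0.291 (Sc5d 1434520_at).

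**Figure D1:**
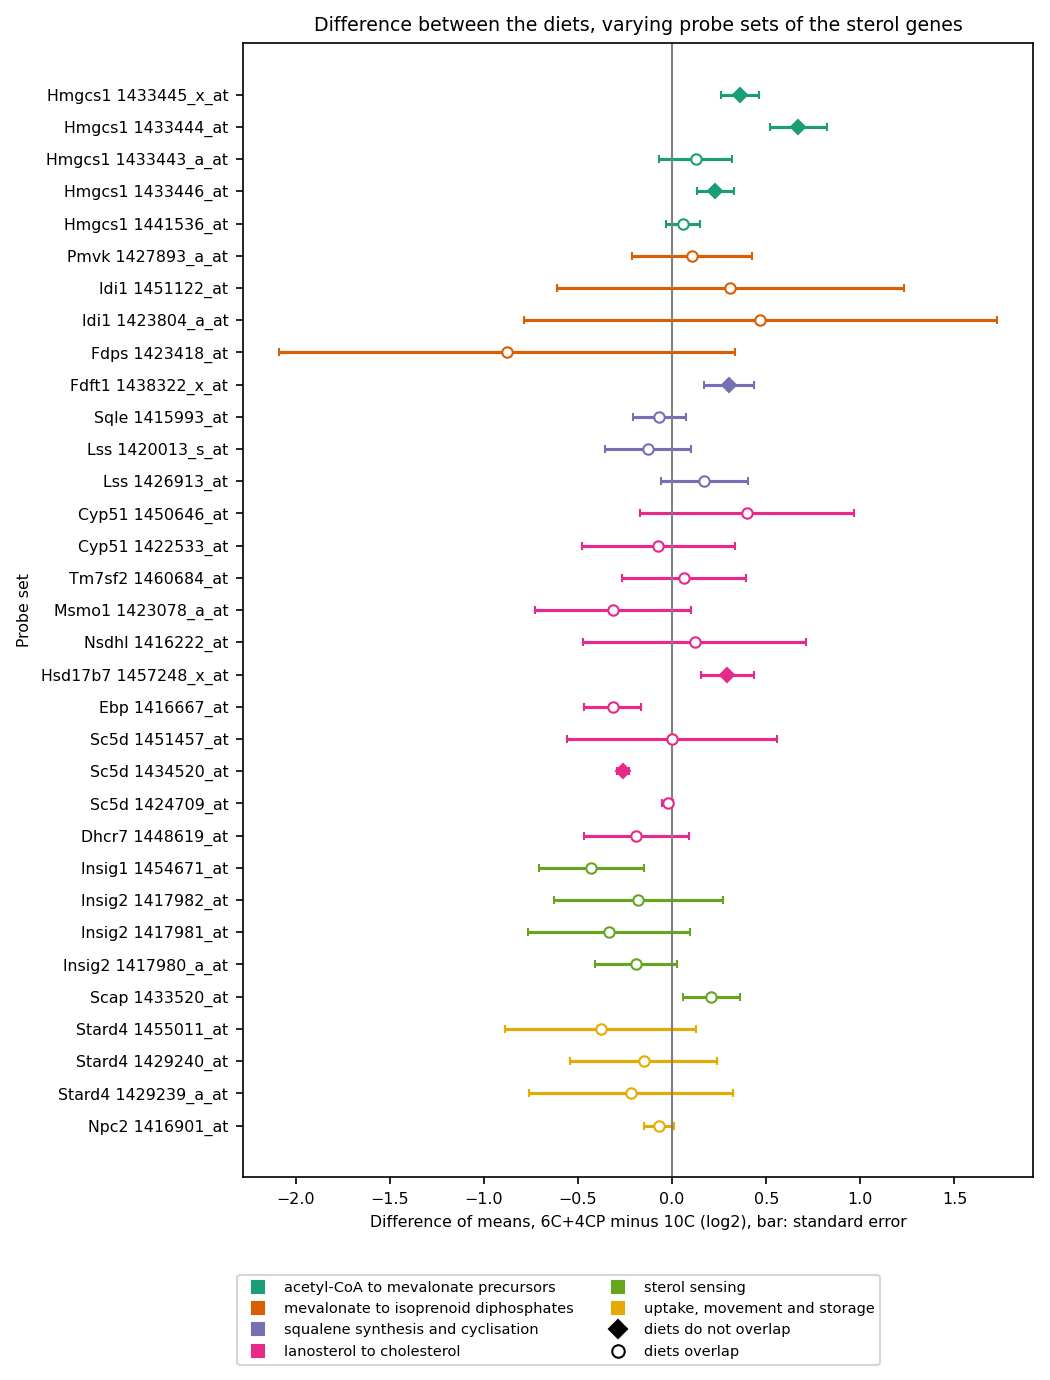
Difference of the diet means (6C+4CP minus 10C, log2, x axis) for each of the 33 varying probe sets, coloured by pathway step, with bars for the standard error over 3 mice per diet. Filled diamonds are the 6 probe sets in which the diets do not overlap. Hmgcs1 lies right of 0 in all 5 probe sets, and the bars of Idi1 and Fdps are the widest.

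Of the listed genes before mevalonate only Hmgcs1 was measured, and it had higher means in 6C+4CP. Hmgcs1, the cytosolic HMG-CoA synthase that makes the precursor of mevalonate, had a higher mean in 6C+4CP in all 5 of its probe sets. They target 1 gene and are not independent. On 1433444_at the 10C mice read 8.85, 8.77 and 8.48 and the 6C+4CP mice 9.17, 9.50 and 9.44. Every 6C+4CP mouse was above every 10C mouse, by a mean of 0.67 (SE 0.15) or 1.59 times, with a limma adjusted p of 0.143 over varying probe sets. The means were 8.70 ± 0.20 (SD, n = 3) and 9.37 ± 0.18. On 1433445_x_at the 10C values were 9.24, 8.96 and 9.04 and the 6C+4CP values 9.33, 9.52 and 9.47, a difference of 0.36 (SE 0.10; limma adjusted p = 0.198). On 1433446_at they were 7.77, 7.63 and 7.70 against 7.83, 7.85 and 8.11, a difference of 0.23 (SE 0.10; limma adjusted p = 0.343). The diets were thus apart on these 3 probe sets, and overlapped on the other pair, 1433443_a_at (difference 0.13, SE 0.19) and 1441536_at (0.060, SE 0.090), where 6C+4CP replicate 1 was the lowest of all mice. The difference on 1433444_at ran from 0.56 to 0.77 when any 1 mouse was left out. On the overlapping pair the direction turned: 1433443_a_at was at -0.0095 without 6C+4CP replicate 3 and 1441536_at at -0.027 without 6C+4CP replicate 2. On 1433446_at the difference was 0.14 without 6C+4CP replicate 3.

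Of the enzymes that turn mevalonate into isoprenoid diphosphates, Idi1 and Fdps showed the widest differences between mice, and these crossed the diets. Idi1, the isomerase that makes dimethylallyl diphosphate, had values of 8.26, 8.11 and 5.31 on 10C and of 6.86, 6.90 and 9.32 on 6C+4CP for 1423804_a_at. Its highest and lowest mouse were 16.1 times apart, each on another diet, so that the mean difference of 0.47 had an SE of 1.26. On its other probe set, 1451122_at, the values were 8.86, 8.45 and 6.35 against 7.89, 7.53 and 9.15, and the lowest and highest mouse were the same. Fdps, the farnesyl diphosphate synthase, read 10.46, 9.99 and 7.31 against 8.14, 7.28 and 9.71, a difference of -0.88 (SE 1.21). Here 10C replicate 3 lay with 6C+4CP replicate 2, and 6C+4CP replicate 3 near the other 10C mice. Without 10C replicate 3 the Fdps difference was -1.85, and without 10C replicate 1 it was -0.27; the direction of Idi1 turned without either 10C replicate 3 or 6C+4CP replicate 3. Pmvk, phosphomevalonate kinase, read 7.65, 7.57 and 7.06 against 7.39, 7.17 and 8.03, a narrower range of 0.98, with the same lowest and highest mouse as Idi1. Mvk, Mvd and Ggps1, for mevalonate kinase, mevalonate diphosphate decarboxylase and the geranylgeranyl branch, had 8 probe sets, none varying.

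Squalene synthesis and cyclisation differed by little. Fdft1, squalene synthase, read 9.08, 9.00 and 8.77 in 10C and 9.25, 9.10 and 9.42 in 6C+4CP on 1438322_x_at, without overlap, a difference of 0.30 (SE 0.13; limma adjusted p = 0.337). The gap between the nearest mice was small, and 3 further Fdft1 probe sets did not vary. Sqle, squalene epoxidase, read 6.55, 6.67 and 6.23 against 6.32, 6.44 and 6.50, and the diets overlapped. Lss, lanosterol synthase, read 7.63, 7.93 and 7.16 against 7.45, 7.37 and 7.51 on 1420013_s_at. Its difference was -0.13 (SE 0.23) there and 0.17 (SE 0.23) on 1426913_at, so that its probe sets did not share a direction. On both, 10C replicate 3 was the lowest mouse of all (7.16 and 6.22).

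The steps from lanosterol to cholesterol held both directions, 4 probe sets higher and 7 lower in mean among 11 varying ones. Hsd17b7, a sterol 3-ketoreductase, read 7.94, 7.99 and 7.77 against 8.10, 8.04 and 8.45 on 1457248_x_at, without overlap, a difference of 0.29 (SE 0.14; limma adjusted p = 0.381); its other 3 probe sets did not vary. The names of this and of the Fdft1 and Hmgcs1 probe sets ending in x_at mark probes that can also match other transcripts. Sc5d, the desaturase that acts late in the route, read 8.82, 8.78 and 8.85 against 8.53, 8.61 and 8.52 on 1434520_at. All 6C+4CP mice were below all 10C mice there, with a difference of -0.26 (SE 0.034), 1.20 times, and a limma adjusted p of 0.105, the smallest of the 33. This was not shared by the gene's other probe sets. On 1451457_at the values were 10.89, 9.82 and 9.82 against 10.25, 9.40 and 10.88, a difference of -0.00058 (SE 0.56), and on 1424709_at the difference was -0.023 (SE 0.030).

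Cyp51, the lanosterol demethylase, followed the order of mice seen in Idi1. It read 7.88, 7.70 and 6.54 in 10C and 7.52, 7.28 and 8.52 in 6C+4CP on 1450646_at, a difference of 0.40 (SE 0.57), and on 1422533_at the difference was -0.073 (SE 0.41). Nsdhl, which removes the carboxyl group left at the sterol's methylated carbon, read 8.38, 7.94 and 6.94 against 7.66, 7.30 and 8.66 (difference 0.12, SE 0.59). Msmo1, the methylsterol monooxygenase before it, read 8.49, 8.70 and 7.62 against 7.50, 8.00 and 8.36. In all of these 10C replicate 3 was the lowest mouse of its diet and 6C+4CP replicate 3 the highest of its own. The same held for Tm7sf2, a sterol reductase (10.00, 9.76 and 9.61 against 9.35, 9.79 and 10.42), and for Dhcr7, the last reductase of one branch (7.67, 7.66 and 7.28 against 6.98, 7.24 and 7.82). Ebp, the sterol isomerase, went another way, with 10.87, 10.99 and 11.05 against 10.55, 10.49 and 10.94. Its difference was -0.31 (SE 0.15; limma adjusted p = 0.378), and 6C+4CP replicate 3 lay inside the 10C range.

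**Figure D2:**
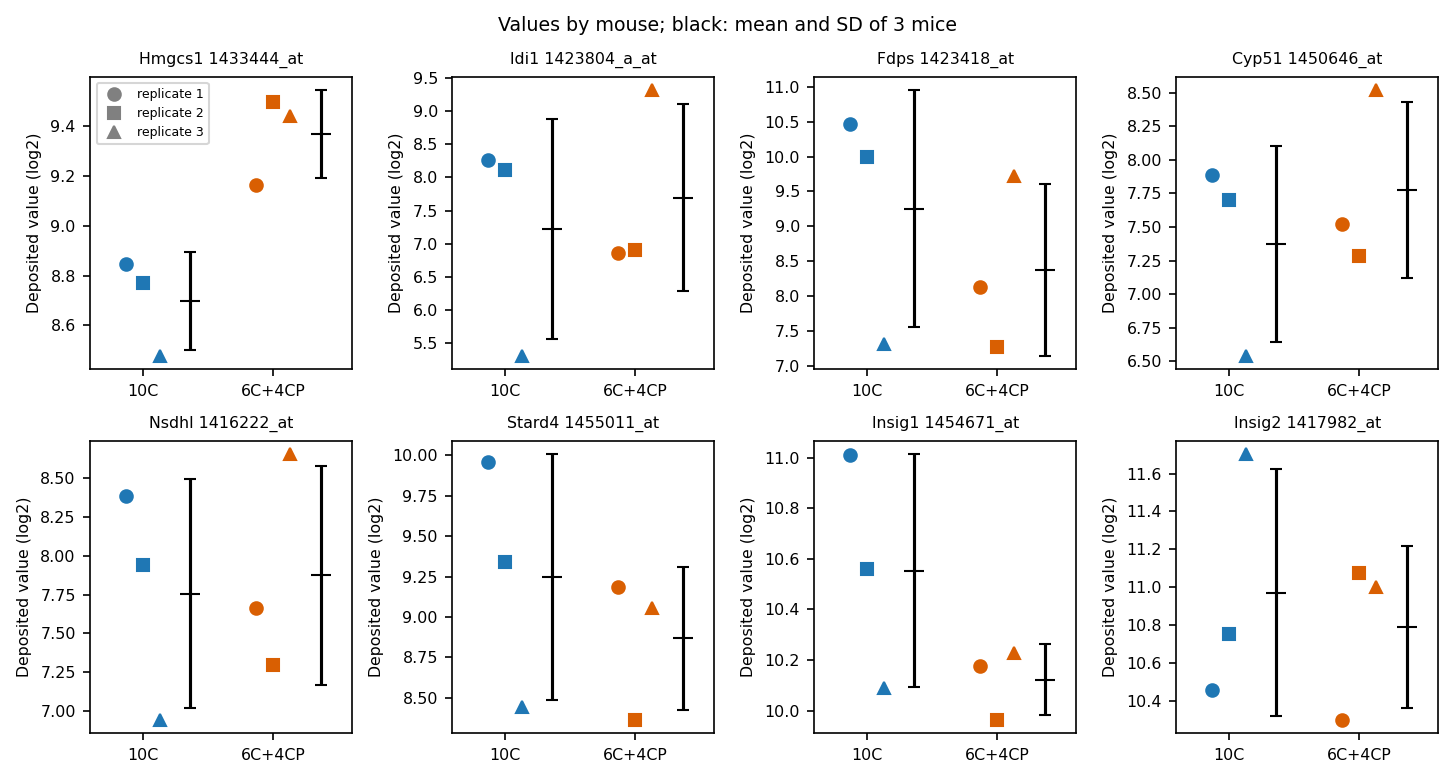
Deposited log2 value (y axis, a separate scale in each panel) of 8 probe sets in each mouse, by diet (x axis) and with a marker shape per replicate number; black bars show the mean and SD of 3 mice. The diets are apart in Hmgcs1, while in Idi1, Cyp51 and Nsdhl the triangle is lowest in 10C and highest in 6C+4CP, and in Insig2 the 10C triangle is the highest.

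The sensors differed between the mice in opposite orders. Insig1, a retention protein whose own gene is a target of SREBP-2, read 11.01, 10.56 and 10.09 in 10C and 10.18, 9.96 and 10.23 in 6C+4CP. The 6C+4CP mice were close together, below 10C replicates 1 and 2 and on both sides of 10C replicate 3, and the difference was -0.43 (SE 0.28; limma adjusted p = 0.488). It was -0.20 without 10C replicate 1 and -0.66 without 10C replicate 3. Insig2, the second retention protein, which is less dependent on SREBP, read 10.46, 10.75 and 11.70 against 10.30, 11.08 and 11.00 on 1417982_at. On all 3 of its probe sets 10C replicate 3 was the highest mouse and 6C+4CP replicate 1 the lowest, whereas 10C replicate 3 was the lowest of its diet for Insig1. The Insig2 differences were -0.18 (SE 0.45), -0.34 (SE 0.43) and -0.19 (SE 0.22). Scap, the escort protein, read 8.98, 9.17 and 9.41 against 9.24, 9.53 and 9.42 on 1433520_at, again with 10C replicate 3 the highest of its diet, and a difference of 0.21 (SE 0.15). Neither probe set of Srebf2 varied.

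Genes of cholesterol movement had 4 varying probe sets, 3 of them of the gene Stard4, with lower means in 6C+4CP and with overlap. Stard4, a carrier of cholesterol in the cytosol, read 9.96, 9.34 and 8.44 against 9.18, 8.36 and 9.06 on 1455011_at, a difference of -0.38 (SE 0.51) that was -0.025 without 10C replicate 1 and -0.78 without 10C replicate 3. Its other probe sets turned higher, to 0.11 and 0.12, without 6C+4CP replicate 2, and to 0.065 and 0.074 without 10C replicate 1. Its 3 probe sets share the highest mouse, 10C replicate 1, and the lowest, 6C+4CP replicate 2. Npc2, the soluble lysosomal cholesterol carrier, read 8.95, 8.93 and 9.05 against 8.78, 8.90 and 9.03 (difference -0.069, SE 0.082). Its partner Npc1 and the ligase Mylip had 1 probe set each, which did not vary.

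Spread within a diet was large for these genes. The median SD over the 33 probe sets was 0.298 in 10C and 0.336 in 6C+4CP, beside 0.106 and 0.0833 over all varying probe sets, and the median range over the 6 mice was 0.98 beside 0.33. The largest SDs in 10C were 1.70 for Fdps and 1.66 and 1.35 for Idi1, and the largest in 6C+4CP were 1.41 and 1.23, for Idi1 and Fdps. The SD was larger in 10C in 19 of the 33 (57.6%), against 61.5% of all varying probe sets. This split moved when 1 mouse was left out, which leaves an SD over 2 mice on that diet. Without 10C replicate 3 the SD was larger in 10C in 4 of 33, with a median of 0.127 in 10C (42% of all varying probe sets then). Without 6C+4CP replicate 1 it was larger in 10C in 13 of 33 (63.8%), and without 6C+4CP replicate 3 in 23 (64.6%). The step from lanosterol to cholesterol had the larger SD in 6C+4CP in 8 of 11 probe sets, which are of 8 genes. The sensors had it in 10C in 5 of 5, which are of 3 genes, with 3 of them of Insig2. Probe sets of 1 gene are not independent, and these counts by step are given for all 6 mice only.

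**Figure D3:**
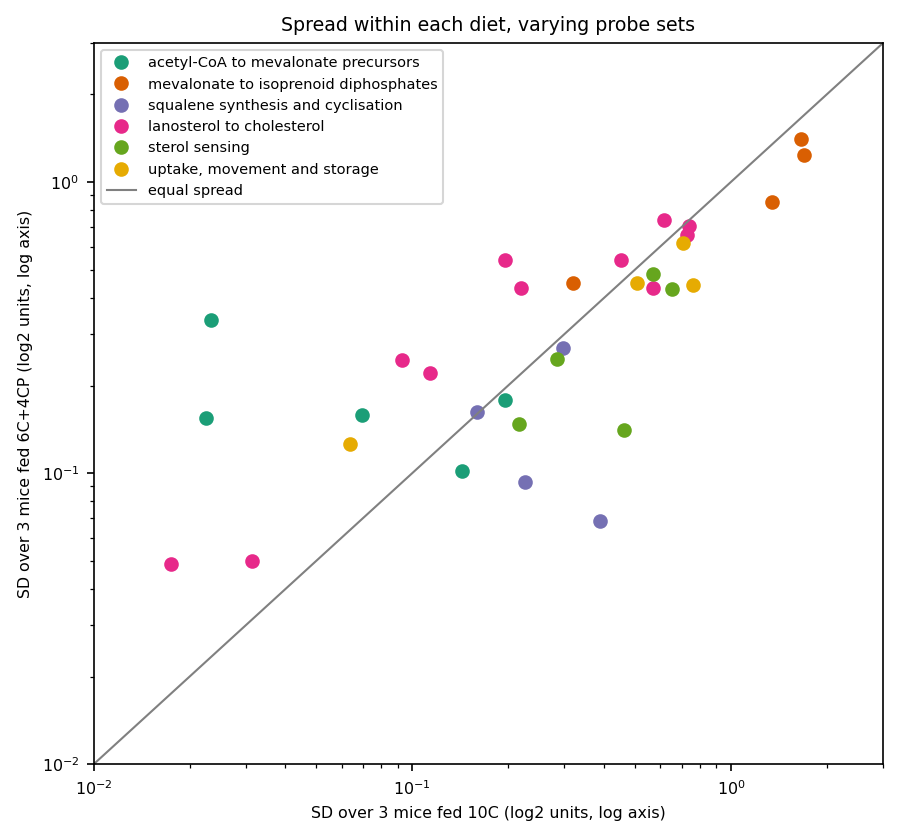
SD over the 3 mice of 6C+4CP (y axis) against that of 10C (x axis) for each varying probe set, in log2 units on log axes, coloured by step; the line marks equal spread. Idi1 and Fdps lie at the upper right with SDs between 0.85 and 1.70 in both diets.

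The order of the mice was shared along the route. This was looked for after the values had been seen and is given as a description. Among the 33 varying probe sets 10C replicate 3 was the lowest of its diet in 21 (63.6%, against 46.6% of all varying probe sets), and 6C+4CP replicate 3 was the highest of its diet in 23 (69.7%, against 29.7%). Both held at once in 18 probe sets of 15 genes (54.5%, against 11.7%). Some of the related lists described below held it too. It was seen in 4 of 6 probe sets for electron donors (66.7%, of 2 genes) and 6 of 12 for acetyl-CoA and citrate supply (50%, of 3 genes). For SREBP-1 lipogenic genes it was seen in 5 of 12 (41.7%, of 3 genes). It was seen in 1 of 17 for other uptake and movement (5.88%) and 1 of 8 for the isoprenoid branch (12.5%). For LXR and sterol export it was 1 of 4 (25%), and for SREBP cleavage and degradation partners 0 of 1. The 18 sterol probe sets included all 4 of the step from mevalonate to isoprenoid diphosphates and all 4 of the squalene step. The rest were 8 of the 11 after lanosterol, and 1 each of Insig1 and Stard4. The probe sets of 1 gene share their target, so the 18 are not separate measurements. Hmgcs1 was in none of them, and neither were Insig2, Scap, Ebp and Npc2.

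**Figure D4:**
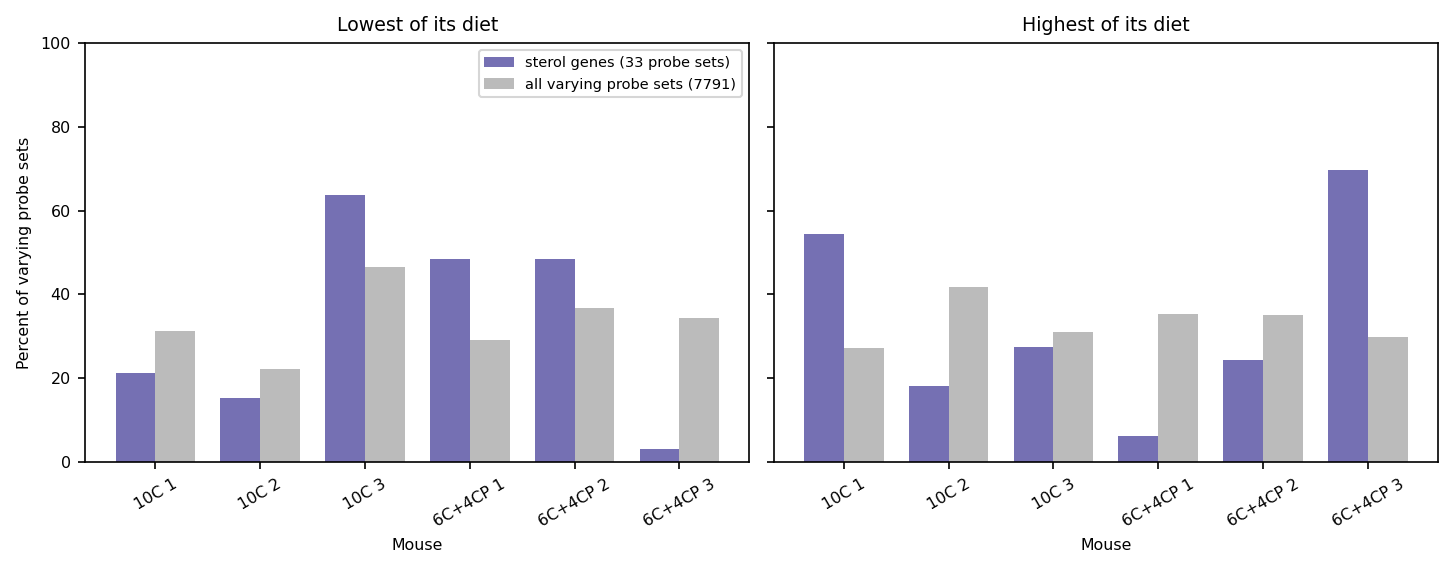
Percent of varying probe sets (y axis) in which each mouse (x axis) was the lowest (left) or the highest (right) of its diet, for the 33 probe sets of the sterol genes and for all 7791. For the sterol genes 6C+4CP replicate 3 is the highest of its diet in 69.7% and the lowest in 3.03%.

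**Figure D5:**
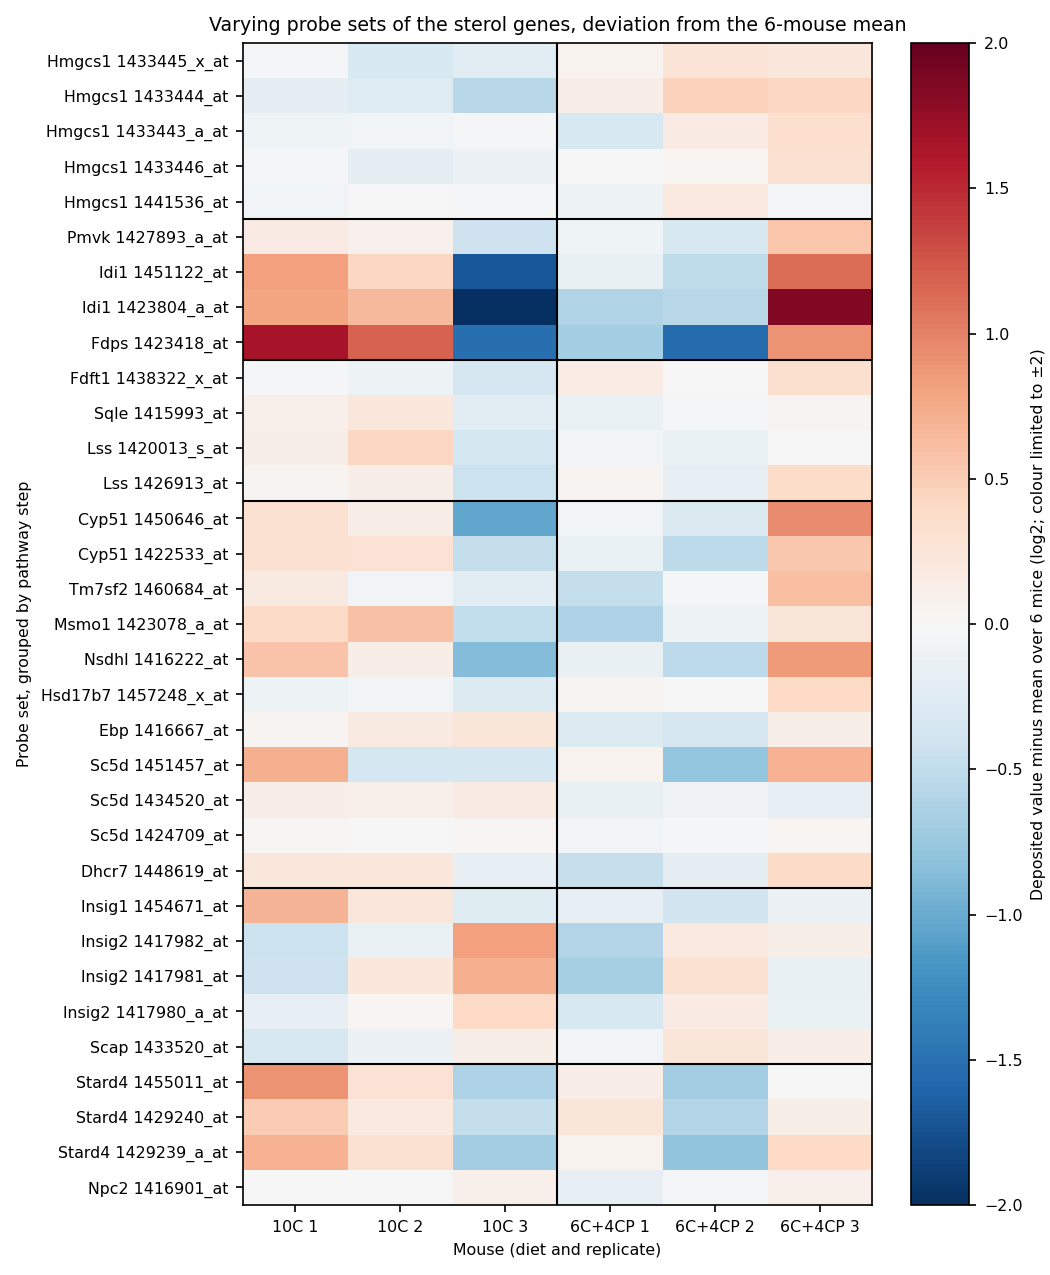
Value of each varying probe set minus its mean over the 6 mice (log2, colour limited to 2 either way), with mice in columns and probe sets in rows grouped by step. From Pmvk to Nsdhl most rows are blue in 10C replicate 3 and red in 6C+4CP replicate 3, and the Insig2 rows are red in 10C replicate 3.

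Leaving out single mice changed which probe sets lay apart, and with 2 mice on a diet absence of overlap is easier to reach. Without 10C replicate 3, 7 of 33 were lower in 6C+4CP without overlap (21.2%, near the 21% of all varying probe sets then), namely those of Fdps, Sqle, Msmo1 and Insig1 and 1 each of Lss, Sc5d and Stard4. Without 6C+4CP replicate 3 there were 5 (15.2%, against 13.3%), 2 of Sc5d and 1 each of Ebp, Dhcr7 and Npc2. Without 10C replicate 1 there were 2 (6.06%, against 14.5%), of Ebp and Sc5d. On the higher side there were 6 without 10C replicate 3 (18.2%, against 16.7%), Scap being added, and 7 without 6C+4CP replicate 1 (21.2%, against 14%), Scap and Hmgcs1 1433443_a_at being added.

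Other readouts of the same mice are given beside this order, and their part in it was not tested. Dbp, a clock output gene, read 10.46, 10.23 and 7.69 in 10C and 11.20, 9.57 and 10.76 in 6C+4CP, so that 10C replicate 3 was also its lowest mouse. Of the 13 clock and clock output genes 10 varied, 6 higher and 4 lower in 6C+4CP and 1 without overlap. Their mean value ran from 7.67 to 7.86 in 10C and from 7.81 to 7.88 in 6C+4CP, and averages genes of opposite order. In 10C replicate 3, Nr1d2 (9.63) and Per2 (7.18) were also the lowest of the diet, and Cry1 (8.41), Nfil3 (8.46) and Arntl (7.40) the highest. In 6C+4CP replicate 2 the same 6 genes, Dbp included, stood the same way within that diet. These clock genes were chosen after their values were seen. Saa1, the acute phase protein serum amyloid A, was high in 10C replicate 2 alone (14.03, against 7.54 to 9.13). The 8 acute phase genes measured all varied, with overlap, 6 lower and 2 higher in 6C+4CP, with list means of 9.08 to 10.65 and 9.03 to 9.54. The 3' minus 5' difference of the Gapdh control, a sign of RNA integrity, was 0.62 in 6C+4CP replicate 2 and 0.18 to 0.31 in the other mice. That of the beta actin control was 1.69 in the same mouse and 1.15 to 1.27 in the others.

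Genes around the route were read from 7 further lists of 61 genes, 56 of them measured by 120 probe sets, of which 60 varied. Of these 60, 31 had a higher and 29 a lower mean in 6C+4CP, and 5 were higher and 7 lower without overlap. Limma called 0, with 10 at an unadjusted p under 0.05. Over all varying probe sets 10.8% were higher and 9.11% lower without overlap, and 14.6% had an unadjusted limma p under 0.05. The median difference was 0.0038. Among 12 varying probe sets of acetyl-CoA and citrate supply the widest difference was in Acly, ATP citrate lyase, which makes cytosolic acetyl-CoA. On 1451666_at it read 10.85, 11.36 and 9.00 in 10C and 7.76, 8.26 and 8.52 in 6C+4CP. All 6C+4CP mice were below all 10C mice, with a difference of -2.23 (SE 0.75; limma adjusted p = 0.232). Among 12 lipogenic probe sets driven by SREBP-1, Acaca, acetyl-CoA carboxylase, read 9.35, 9.61 and 7.82 against 7.69, 7.21 and 7.81, also apart (limma adjusted p = 0.319). In the same list Fasn, fatty acid synthase, read 11.00, 11.49 and 8.59 against 8.16, 7.93 and 7.89, apart by a wider difference of -2.37 (SE 0.90; limma adjusted p = 0.266). In this list 10C replicate 3 was the lowest of its diet in 10 of the 12 probe sets. In Acly and Acaca 10C replicate 3 was the lowest and 6C+4CP replicate 3 the highest of its diet, as in Idi1 and Cyp51, and in Fasn 6C+4CP replicate 3 was the lowest of its diet. In Idi1 and Cyp51 6C+4CP replicate 3 was also above every 10C mouse, which it was not in Acly, Acaca and Fasn.

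Export and side branches held few varying probe sets. Of the 4 in the list of LXR, the sterol-sensing nuclear receptor, and sterol export, Abca1, the cholesterol exporter of the cell surface, read 7.16, 7.15 and 6.89 against 6.75, 6.58 and 6.77 on 1421839_at, and Abcg8, of the exporter into bile, read 8.51, 8.35 and 8.43 against 8.65, 8.62 and 8.60. The diets did not overlap in either, with differences of -0.36 (SE 0.11) for Abca1 and 0.19 (SE 0.049) for Abcg8, with limma adjusted p of 0.206 for both. In the isoprenoid branch Rabggtb, a subunit of the enzyme that prenylates Rab proteins, was higher without overlap by 0.32 (SE 0.10; limma adjusted p = 0.232), as 1 of 8 varying probe sets. Of these 8, 2 had a higher and 6 a lower mean in 6C+4CP, and 1 was lower without overlap. Of the 6 for electron donors, which serve the oxygenases of the route, 10C replicate 3 was the lowest of its diet in 5, among them Cyb5r3 with 8.53, 8.35 and 7.83 against 8.24, 7.47 and 8.21. Of 17 probe sets for other uptake and movement genes 12 had a higher mean in 6C+4CP, among them Scp2, sterol carrier protein 2, by 0.26 without overlap (SE 0.12; limma adjusted p = 0.372). Of the SREBP cleavage and sterol-regulated degradation partners, 1 of 17 probe sets varied.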

How the data were processed

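Liver RNA of 6 mice was measured on 1 Affymetrix 3' array each, and samples were grouped by their titles. The authors deposited 1 table of values, taken as log2 from their span of 4.757 to 14.48; the sources used here do not name the log base, background correction or summarisation. R 2.7.2 is listed in the submitters' processing notes. The number of arrays limits the precision.

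After 64 control probe sets were left out, 45037 remained. GEO's platform annotation gave 34945 of them 1 symbol, 932 several and 9160 none. The comparison used limma 3.58.1 (lmFit and eBayes, R 4.3.3) on all 6 arrays with no covariates, once over all probe sets and once over the varying ones; a call is a Benjamini-Hochberg adjusted p under 0.05. The fit was tested on simulated data with changes planted only in varying probe sets and very small SDs raised to a floor. That test does not bear on calls among probe sets that do not vary. SEs combine the SDs of both diets, and differences are 6C+4CP minus 10C. Per-mouse values are given for members whose diets do not overlap and for each other member's brightest varying probe set, with a second Idi1 probe set added after its values were seen. Genes outside the list are at most the 2 of each related list with the smallest p, Saa1, and clock and other marker genes given beside the results. Members and lists were chosen with earlier results of these data known. Alternatives were each mouse left out, a replicate block, median centring, quantile normalization, an intensity trend with robust estimation, the brighter probe sets alone, other ranges for varying, and 1 probe set per gene.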

Additional observations from a re-analysis of the deposited data

How the results depend on the processing

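Of the 33 varying probe sets of the sterol genes, 17 kept the direction of their difference under every alternative run (each mouse left out, replicate block, median centring, quantile normalization, trend with robust estimation and, where they stand for their gene, 1 probe set per gene), and limma called none in 350 pairs of probe set and alternative. In 16 the direction turned when 1 mouse was left out. The lowest and highest differences without 1 mouse are given in parentheses for Hmgcs1 1433443_a_at (-0.0095 to 0.31), Hmgcs1 1441536_at (-0.027 to 0.12), Pmvk 1427893_a_at (-0.14 to 0.29), Idi1 1451122_at (-0.46 to 0.80), Idi1 1423804_a_at (-0.49 to 0.98), Sqle 1415993_at (-0.19 to 0.025). The same range is given for Lss 1420013_s_at (-0.34 to 0.049), Lss 1426913_at (-0.0014 to 0.29), Cyp51 1450646_at (-0.020 to 0.65), Cyp51 1422533_at (-0.36 to 0.17), Tm7sf2 1460684_at (-0.22 to 0.32), Nsdhl 1416222_at (-0.29 to 0.43). It is also given for Sc5d 1451457_at (-0.35 to 0.39), Insig2 1417982_at (-0.44 to 0.19), Stard4 1429240_at (-0.43 to 0.11), Stard4 1429239_a_at (-0.61 to 0.12). Of the 17 that did not turn, 12 moved by over 1.5 times without 1 mouse, among them Fdps 1423418_at (-1.85 to -0.27), Msmo1 1423078_a_at (-0.64 to -0.088), Dhcr7 1448619_at (-0.43 to -0.0058), Insig2 1417981_at (-0.63 to -0.061) and Scap 1433520_at (0.10 to 0.32). Quantile normalization also turned Sc5d 1451457_at (0.015). Over all probe sets limma called 109 in the fit as reported, 285 to 398 without 1 mouse, 3 with the replicate number as a block, 0 with median centring, 1 with quantile normalization, 0 with a trend and robust estimation, 46 with 1 probe set per gene and 0 among the brighter probe sets alone; 103 of the 109 were not varying. Over varying probe sets it called 0, and 0 with the block or without any 1 mouse, but 2 with 1 probe set per gene and 1 when varying meant a range over 0.05. The probe sets lower without overlap numbered 1 to 7 and those with the larger SD in 10C numbered 4 to 23 without 1 mouse; with 1 probe set per gene (20 probe sets) 3 were higher and 0 lower without overlap, and 12 had the larger SD in 10C. The median difference ran from -0.18 to 0.094 without 1 mouse, and the mean in place of the median was -0.0097. Deviations of same-numbered mice from their diet means correlated at 0.48, -0.089 and 0.085. Whether the replicate numbers pair the mice was not tested.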
